A study of Mus musculus with 12 samples.

Results

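Collagens, laminins and integrins were followed across 12 mouse RNA sequencing libraries as 84 genes, chosen by symbol from the 21897 protein-coding genes among the 35975 genes of the files: 44 collagen chains (Col), 11 laminin chains (Lama, Lamb, Lamc) and 29 genes with integrin symbols (Itga, Itgb). The symbol alone decided membership. The symbol pattern also took in Itgb1bp2, a protein that binds the tail of the integrin beta 1 chain, and Itgbl1, a secreted protein that resembles the beta chains; neither is an integrin subunit.

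The cultures were primordial germ cell-like cells (PGCLCs), made in vitro from embryonic stem cells (ESCs) to resemble the founders of the germ line. All groups started from E14TG2a, a mouse ESC line grown on fibronectin-coated plates with LIF, Gsk3 and MEK inhibitors and vitamin C, were primed to epiblast-like cells and were then induced for 4 days as aggregates with BMP4, BMP8, SCF, EGF and LIF. TKO_40h, TKO_48h and TKO_96h carried the genotype labelled TKO, known from the study to be knocked out for the DNA methyltransferase genes Dnmt1, Dnmt3a and Dnmt3b, and were primed for 40, 48 and 96 h. WT_40h was wild type and was primed for 40 h, so the longer primings have no wild-type counterpart. Each group has 3 libraries labelled as biological replicates, and the labels do not say how many clones the TKO line comprises or whether RNA came from sorted cells or whole aggregates.

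Collagen chains assemble into triple helices, and types IV and XVIII belong to the basement membrane, the sheet of matrix under epithelia. Laminins are trimers of an alpha, a beta and a gamma chain that join with type IV collagen in that sheet. Integrins are surface receptors of an alpha and a beta chain that bind laminins, collagens, fibronectin and other matrix proteins. In the early mouse embryo a basement membrane of laminin and type IV collagen lies against the epiblast, and mouse PGCLCs are commonly recognised by the integrin beta 3 chain (CD61, gene Itgb3) on their surface.

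Libraries held 6570180 to 9114128 estimated counts. Between 64.9 and 152 CPM (counts scaled to library size) of Dnmt1, between 25.4 and 73.1 CPM of Dnmt3a and between 13.4 and 55.4 CPM of Dnmt3b were found in the 9 TKO libraries, against 426 to 450 CPM, 358 to 436 CPM and 158 to 215 CPM in WT_40h. TKO_48h replicate 1 stood apart on the second principal component of all genes (-98.2, with -27.1 the next lowest), and TKO_96h replicate 1 lay farthest out on the first (76.0, with 63.9 the next). Dppa3, Prdm1, Tfap2c, Pou5f1 and Nanog, markers of germ cells and pluripotent cells, were all present, and the summed level of 10 such markers was 1204 to 1271 CPM in TKO_40h, 1299 to 1552 CPM in TKO_48h, 1418 to 1639 CPM in TKO_96h and 1170 to 1247 CPM in WT_40h. Most of that sum was Pou5f1, Sox2 and Nanog. Their means were 794, 285 and 261 CPM in TKO_96h and 525, 230 and 290 CPM in TKO_40h. Single markers went both ways: in TKO_96h against TKO_40h, Dppa3, Prdm1 and Tfap2c fell (log2 fold change -1.47, -1.01 and -0.79) and Pou5f1 and Sox2 rose (0.60 and 0.31), the call of Sox2 being lost without any 1 of the 6 libraries (adjusted p 0.0623 to 0.108) and that of Tfap2c with an offset for transcript length (0.0789). Of the 10 markers 50% were called in that comparison, beside 12.1% of all genes. Dppa3 averaged 18.5 ± 2.12 CPM in TKO_96h, against 51.5 ± 5.44 CPM in TKO_40h (SD, n = 3 each), and the part of these markers in the results was not tested.

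A few genes of each family made up most of its RNA. In TPM, a level per transcript length that allows genes to be compared, Col18a1 led the collagens with 85.2 ± 10.5 TPM in TKO_40h, 70.5 ± 8.17 TPM in TKO_48h, 58.2 ± 8.90 TPM in TKO_96h and 73.0 ± 5.89 TPM in WT_40h (SD, n = 3 each). Its product is the basement membrane collagen whose end fragment is endostatin. Col4a1 followed with 41.2 ± 14.2, 55.6 ± 2.34, 18.0 ± 3.83 and 35.4 ± 13.0 TPM in the same order of groups, and Col4a2 with 9.76 ± 2.03, 15.5 ± 3.86, 5.56 ± 1.17 and 10.6 ± 1.40 TPM. Every other collagen averaged less than Col4a2 over the 12 libraries, but in TKO_96h Col9a2 lay above it with 11.4 ± 2.03 TPM. Among the laminins, Lamc1, the common gamma chain, supplied 89.9 to 98.3% of gamma chain TPM in a library, and Lama5 was the leading alpha chain in every library with 51.7 to 82.9%. Itgb1, the beta chain shared by most matrix-binding integrins, supplied 64.7 to 82.1% of the beta subunit TPM, and Itga6, Itgav, Itga3 and Itga5 were the 4 leading alpha subunits by the mean over all libraries. That order is of gene totals: the leading coding transcript of Itga6 held 33.0 to 39.7% of its TPM in a group, and 1 processed transcript 22.8 to 29.3%. In WT_40h its processed transcripts held 23.7, 12.2, 10.6, 3.67 and 1.19%, and its coding transcripts 38.2, 6.47 and 3.93%. In TKO_96h the processed ones held 22.8, 12.9, 10.7, 8.98 and 6.91%, and the coding ones 33.0, 3.27 and 1.52%. The total of Itga6 is thus not all coding RNA. Summed over all 84 members the level was 452 ± 29.5 TPM in TKO_40h, 416 ± 61.7 TPM in TKO_48h, 348 ± 52.4 TPM in TKO_96h and 407 ± 22.4 TPM in WT_40h (SD, n = 3 each). Lamb3 reached 8.14 TPM on average, but 84.4 to 98.9% of its group means lay in 1 short processed transcript, and its level was not read as that of a laminin chain.

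**Figure D1:**
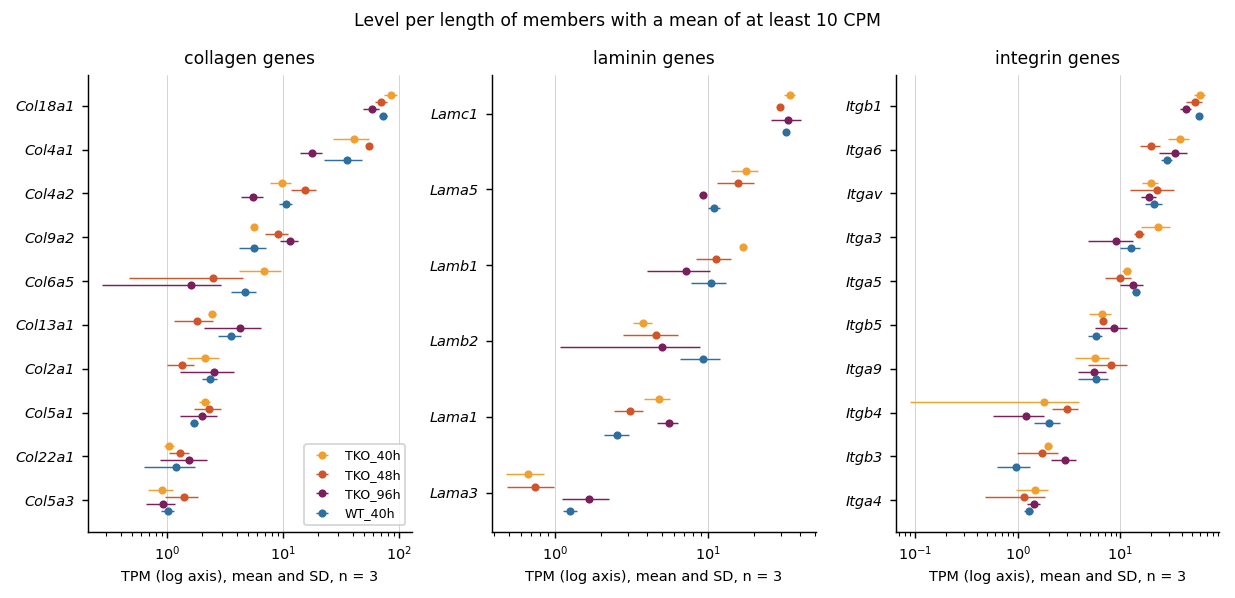
Mean TPM (log axis) with SD over 3 libraries for the members with a mean of at least 10 CPM, ordered within each family by their mean over all libraries; lower bars stop short of 0 where the SD nears or exceeds the mean. Col18a1, Lamc1 and Itgb1 head their families in all 4 groups, and Col4a1 and Col4a2 sit lowest in TKO_96h.

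Of the 84 members, 66 had enough counts to be tested (33 collagens, 10 laminins and 23 integrin genes), and 33 of these averaged under 5 CPM. A gene was called at an adjusted p under 0.05 in edgeR's quasi-likelihood test, with Benjamini-Hochberg adjustment over all 16178 genes tested. By this rule 24 members were called in at least 1 of 4 comparisons and 42 in none. The comparisons share libraries: TKO_40h stands in 3 of them and TKO_96h and TKO_48h in 2 each, so their results are not independent of each other. In bulk samples, fewer cells of a type and less RNA per cell cannot be told apart.

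Between genotypes at 40 h of priming, 3 of the 4 members called were laminin chains. TKO_40h had more RNA of Lama1 and Lamb1 and less of Lama3 than WT_40h, and less of the fibronectin receptor chain Itga5. No collagen was called: the edgeR test found 0 of 33 collagens at an adjusted p under 0.05, and DESeq2 called Col6a5. At an unadjusted p under 0.05 were 5 of the 33, beside 2527 of all 16178 genes tested. In all, 2 members were higher and 2 lower of 66 tested, 6.06%, beside 3.1% of all genes (1.62% higher and 1.48% lower). The median log2 fold change was -0.09 over the members and 0.00 over all genes tested. With an offset for each library's effective transcript lengths all 4 calls were lost (adjusted p 0.141 to 0.373), and with any 1 library left out between 1 and 2 members were called.

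With 48 instead of 40 h of priming, the type IV pair Col4a1 and Col4a2 rose in TKO cells, with Col5a3, Col9a2, Itga8 and Itgb4, while Col6a5 and Itga6 fell. These are 6 higher and 2 lower of 66, 12.1%, beside 5.49% of all genes (2.57% higher and 2.92% lower). The median log2 fold change was 0.31 over the members and 0.00 over all genes. No laminin was called by edgeR and 0 by DESeq2. At an unadjusted p under 0.05 were 3 of the 10 laminins, beside 3115 of all 16178 genes tested. With the length offset only Col4a2 and Col9a2 kept their calls, and with 1 library left out between 3 and 6 members were called, with 4 called in the absence of TKO_48h replicate 1.

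After 96 h of priming TKO cells had less RNA for the leading basement membrane collagens, for the chains Lama5 and Lamb1 and for the receptor chains Itga3 and Itgb1 than after 40 h, and more for Col9a2, Lama3 and Itga5. Against TKO_40h, 3 members were higher and 10 lower, 19.7% of 66 beside 12.1% of all genes (4.94% higher and 7.2% lower). Against TKO_48h, 2 members were higher and 16 lower, 27.3% of 66 beside 19.5% of all genes (8.82% higher and 10.7% lower). The median log2 fold change over the members was -0.24 against TKO_40h and -0.56 against TKO_48h, with 0.00 and 0.01 over all genes. By family, 6 of 33 collagens, 2 of 10 laminins and 2 of 23 integrin genes fell against TKO_40h, and 9 collagens, 2 laminins and 5 integrin genes fell against TKO_48h. The length offset ended the call of Itga5 against TKO_40h (log2 fold change 0.21, adjusted p = 0.54) and those of Col13a1, Col5a1, Col5a3, Col6a5, Itga9, Itgav, Itgb1bp2 and Itgb4 against TKO_48h (0.0619 to 0.310). Without both libraries that stood apart, 14 members were called against TKO_48h, and the calls of Col5a1, Col5a3, Itga9 and Lamb1 were lost (0.102 to 0.157).

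**Figure D2:**
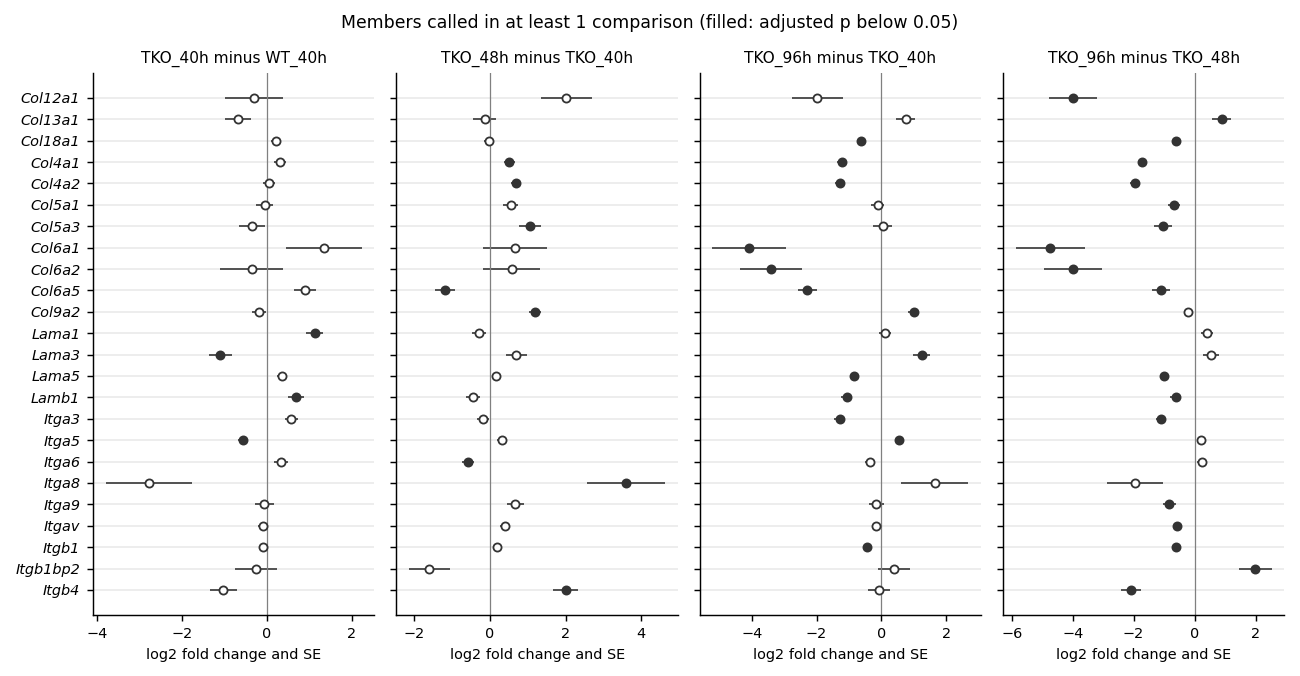
Log2 fold change with SE of the 24 members called in at least 1 comparison, 1 panel for each comparison, filled where the adjusted p is under 0.05 and open elsewhere. In both panels for TKO_96h most filled points lie left of 0, and in the panel for TKO_48h minus TKO_40h 6 of 8 lie right of it.

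Col4a1 and Col4a2, whose chains wind together into the main network collagen of basement membranes, lie head to head at chr8:11198423-11312826 on the minus strand and chr8:11312805-11449287 on the plus strand (GRCm38, GENCODE M21), and their annotated first exons overlap by 22 bases, within which reads of the pair could be told apart only if strand was used in quantification. Col4a1 had 256, 240.2 and 181 CPM in TKO_40h, 344, 334 and 282 in TKO_48h, 95.6, 81.3 and 115 in TKO_96h and 179, 159 and 210.5 in WT_40h. The 3 TKO_96h libraries lay under all others and the 3 TKO_48h libraries above all others. Col4a1 rose in TKO_48h over TKO_40h (log2 fold change 0.51 ± 0.15 SE, adjusted p = 0.047), a call that was lost with any 1 of the 6 libraries left out (adjusted p 0.0523 to 0.237). TKO_96h was lower than TKO_40h (log2 fold change -1.21 ± 0.15 SE, adjusted p = 1.8e-05) and than TKO_48h (log2 fold change -1.72 ± 0.15 SE, adjusted p = 1.5e-07).

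Col4a2 had 89.3, 76.7 and 72.4 CPM in TKO_40h, 127, 143 and 115 in TKO_48h, 33.5, 28 and 36.7 in TKO_96h and 64.3, 77.0 and 88.9 in WT_40h. TKO_96h again lay lowest and TKO_48h highest with no overlap. It rose in TKO_48h over TKO_40h (log2 fold change 0.69 ± 0.14 SE, adjusted p = 0.0061) and fell in TKO_96h against TKO_40h (log2 fold change -1.28 ± 0.15 SE, adjusted p = 6.8e-06). Against TKO_48h it was lower as well (log2 fold change -1.97 ± 0.15 SE, adjusted p = 1.2e-08). In the comparison of genotypes neither gene was called: the log2 fold change of TKO_40h minus WT_40h was 0.30 ± 0.15 SE for Col4a1 (adjusted p = 0.32) and 0.05 ± 0.14 SE for Col4a2 (adjusted p = 0.92). TPM of Col4a1 per TPM of Col4a2 was 3.20 to 3.25 in the 3 TKO_96h libraries and 2.42 to 5.16 in the other libraries. Between 26.3 and 44.9% of the Col4a1 TPM of a group came from 1 transcript annotated as a target of nonsense-mediated decay, and 21.4 to 48.2% of the Col4a2 TPM from 1 transcript with a retained intron, so gene totals here are not all coding RNA.

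The other pairs of type IV genes were near the floor. Col4a5 and Col4a6 lie 1308 bases apart on chromosome X and Col4a3 and Col4a4 lie 71 bases apart on chromosome 1. Of these only Col4a5 was tested, at 0 to 2.63 CPM in any library, and it was not called in edgeR (TKO_96h minus TKO_40h -3.18, adjusted p = 0.072); DESeq2 called it lower there. Summed TPM over all 6 type IV genes was 52.4 ± 15.9 in TKO_40h, 72.3 ± 2.33 in TKO_48h, 24.6 ± 5.75 in TKO_96h and 47.3 ± 14.3 in WT_40h (SD, n = 3 each).

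Col18a1 had 537, 548 and 478 CPM in TKO_40h, 578, 420.3 and 536 in TKO_48h, 299, 359 and 344 in TKO_96h and 404, 481 and 468 in WT_40h. TKO_96h lay under every other library, and the other 3 groups overlapped. It fell against TKO_40h (log2 fold change -0.64 ± 0.12 SE, adjusted p = 0.0013). It was also lower than in TKO_48h (log2 fold change -0.61 ± 0.12 SE, adjusted p = 0.0012) and was not called between genotypes (0.21, adjusted p = 0.43).

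**Figure D3:**
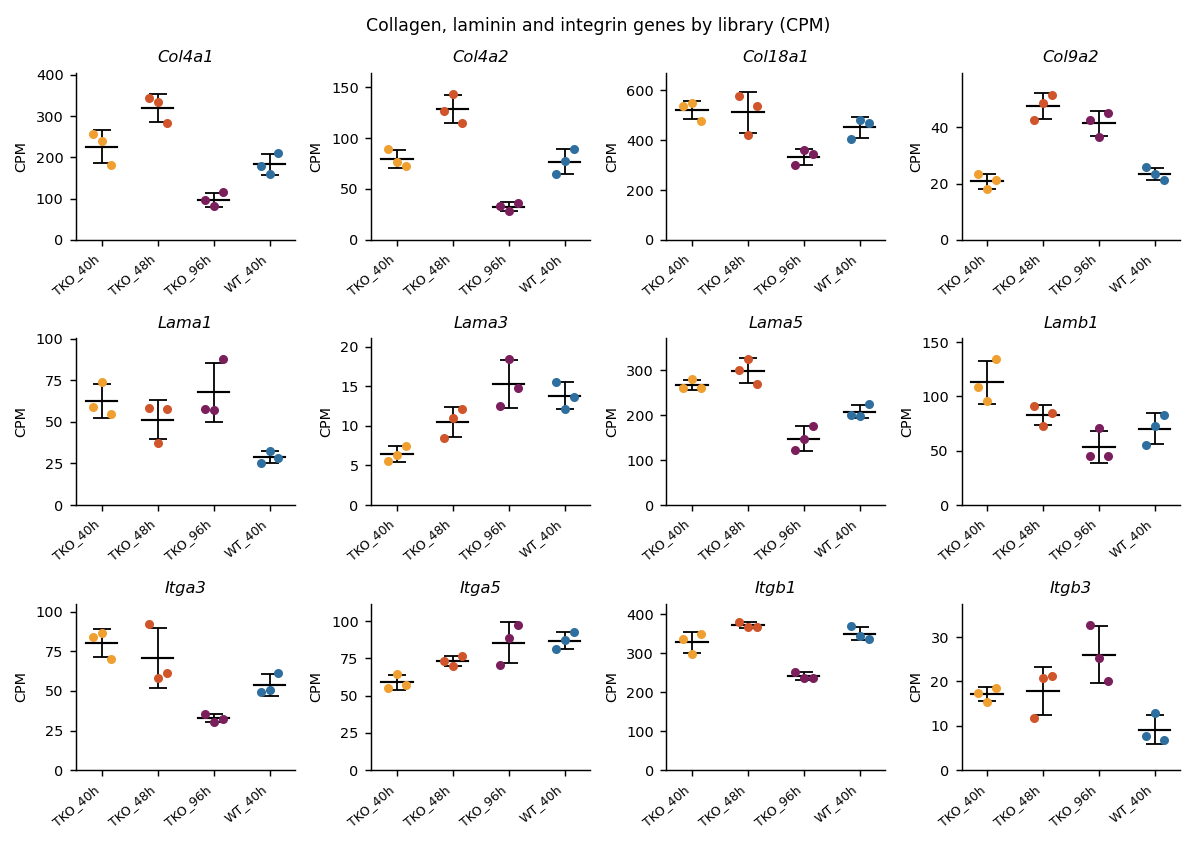
CPM in each library of 12 members, with the mean and SD over 3 libraries, groups from left to right TKO_40h, TKO_48h, TKO_96h and WT_40h. Col4a1, Col4a2, Col18a1, Lama5, Itga3 and Itgb1 are lowest in TKO_96h, while Lama3 and Itga5 of TKO_96h overlap WT_40h and lie above TKO_40h.

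Collagens outside the basement membrane were less abundant than Col18a1 and Col4a1 and did not move as 1 block. Col9a2, a chain of the cartilage collagen that coats type II fibrils, had 23.2, 17.9 and 21.3 CPM in TKO_40h, 42.6, 48.7 and 51.4 in TKO_48h, 42.6, 36.5 and 45.0 in TKO_96h and 25.7, 23.5 and 21.4 in WT_40h. TKO_48h and TKO_96h both lay wholly above TKO_40h and WT_40h. The gene rose in TKO_48h (log2 fold change 1.19 ± 0.16 SE, adjusted p = 0.00028) and in TKO_96h (log2 fold change 0.99 ± 0.16 SE, adjusted p = 0.00043) over TKO_40h, and no library left out changed either call.

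Type VI collagen forms beaded filaments around cells from the chains of Col6a1, Col6a2 and a further chain, for which Col6a5 is a candidate. Col6a5 had 31.2, 27.6 and 30.6 CPM in TKO_40h, 9.45, 14.7 and 15.2 in TKO_48h, 4.38, 9.1 and 4.88 in TKO_96h and 12.7, 17.2 and 18.4 in WT_40h. TKO_40h lay above every other library and TKO_96h under all of them. It fell in TKO_48h against TKO_40h (log2 fold change -1.18 ± 0.26 SE, adjusted p = 0.013; 0.0571 without TKO_40h replicate 1 and 0.0516 without TKO_48h replicate 1) and in TKO_96h against TKO_40h (log2 fold change -2.28 ± 0.28 SE, adjusted p = 1.8e-05). Against TKO_48h it was lower as well (log2 fold change -1.10 ± 0.28 SE, adjusted p = 0.0094). Between genotypes its log2 fold change was 0.89 with an edgeR adjusted p of 0.069, and DESeq2 called it (0.029).

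Col6a1 and Col6a2 were scarce in every group. Col6a1 had 1.24, 2.66 and 1.75 CPM in TKO_40h, 1.37, 4.81 and 2.70 in TKO_48h, 0.302, 0 and 0 in TKO_96h and 0.445, 0.667 and 1.11 in WT_40h. TKO_96h held 2 counts over its 3 libraries, against 44 in TKO_40h, a ratio of TKO_40h over TKO_96h of 20.1 with an exact 95% counting interval of 5.25 to 171. The fall of Col6a1 was called against TKO_40h (adjusted p = 0.022; 0.0524 to 0.086 without TKO_40h replicate 2 or 3 or TKO_96h replicate 2 or 3) and against TKO_48h (0.0056). Col6a2 had 1.94, 1.46 and 1.63 CPM in TKO_40h, 2.23, 2.41 and 2.84 in TKO_48h, 0.302, 0 and 0.132 in TKO_96h and 1.56, 1.60 and 3.32 in WT_40h. TKO_96h held 3 counts over its 3 libraries, against 39 in TKO_40h, a ratio of TKO_40h over TKO_96h of 11.9 with an exact 95% counting interval of 3.78 to 60.1. Its fall was called against TKO_40h (adjusted p = 0.022; 0.0575 to 0.0891 without TKO_40h replicate 1 or 3 or TKO_96h replicate 2 or 3) and against TKO_48h (0.0055). Intervals and floors cover counting error only and leave out the spread between libraries. PCR copies carry no molecular identifiers, so the counting error itself may be understated. Col6a3, the usual partner of both, had too few counts to be tested and went the other way: 2, 9 and 28 counts in TKO_96h, against 0 in TKO_40h, at least 13.6-fold higher in TKO_96h by a floor of 3 counts over the group and at least 6.08-fold without TKO_96h replicate 3.

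Fibrillar and fibril-associated collagens gave scattered calls. Col5a3, a type V chain, had 7.05, 8.64 and 7.45 CPM in TKO_40h, 20.1, 17.1 and 11.4 in TKO_48h, 7.85, 5.46 and 10.4 in TKO_96h and 10.6, 8.94 and 9.95 in WT_40h. TKO_48h lay above all other libraries. The gene rose in TKO_48h over TKO_40h (log2 fold change 1.07 ± 0.30 SE, adjusted p = 0.039), a call lost without any TKO_40h library or TKO_48h replicate 1 or 2 (0.0752 to 0.142). It fell in TKO_96h against TKO_48h (log2 fold change -1.03 ± 0.30 SE, adjusted p = 0.019), a call lost without TKO_48h or TKO_96h replicate 1 or 2 (0.0511 to 0.0925). Col5a1, the main type V chain, had 21.2, 29.5 and 18.5 CPM in TKO_40h, 33.0, 32.4 and 35.5 in TKO_48h, 17.5, 21.4 and 24.7 in TKO_96h and 21.5, 26.0 and 23.9 in WT_40h. TKO_48h lay above all other libraries. The gene fell in TKO_96h against TKO_48h (log2 fold change -0.66 ± 0.20 SE, adjusted p = 0.023; 0.0595 to 0.1 without TKO_48h replicate 3 or TKO_96h replicate 1 or 2).

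Col12a1, a collagen that decorates the surface of fibrils, had 0.691, 2.39 and 1.51 CPM in TKO_40h, 8.59, 6.55 and 3.69 in TKO_48h, 0.453, 0.420 and 0.264 in TKO_96h and 1.11, 3.34 and 1.24 in WT_40h. TKO_48h lay above all other libraries and TKO_96h under all of them. It fell in TKO_96h against TKO_48h (log2 fold change -4.00 ± 0.78 SE, adjusted p = 0.0012). Col13a1, a collagen that spans the cell membrane, had 10.5, 11.6 and 8.96 CPM in TKO_40h, 9.62, 10.6 and 7.95 in TKO_48h, 11.6, 13.3 and 26.9 in TKO_96h and 16.4, 12.8 and 20.6 in WT_40h. TKO_96h lay above TKO_48h, with replicate 3 above all other libraries. It was the only collagen called higher in TKO_96h than in TKO_48h (log2 fold change 0.88 ± 0.30 SE, adjusted p = 0.046), and that call rests on TKO_96h replicate 3. Without it the log2 fold change was 0.42 (adjusted p = 0.37), and the call was also lost without any 1 of the TKO_48h libraries (0.0585 to 0.145). The principal chains of the abundant interstitial collagens, Col1a1 and Col1a2, averaged 2.36 and 1.67 CPM, Col3a1 averaged 0.268 CPM and was not tested, and none was called.

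Laminin alpha chains changed in different directions. Lama5, the alpha chain found in most basement membranes, had 260.3, 282 and 261 CPM in TKO_40h, 301, 326 and 270.3 in TKO_48h, 122, 147 and 176 in TKO_96h and 201, 199 and 225 in WT_40h. TKO_96h lay under every other library. It fell against TKO_40h (log2 fold change -0.85 ± 0.12 SE, adjusted p = 9.6e-05). It was also lower than in TKO_48h (log2 fold change -1.01 ± 0.12 SE, adjusted p = 8.6e-06), and its higher mean in TKO_40h than in WT_40h was not called by edgeR (0.36, adjusted p = 0.12), but was with only both groups in the fit (0.0034).

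Lama1, the alpha chain of the earliest embryonic basement membranes, had 59.0, 74.0 and 54.5 CPM in TKO_40h, 58.2, 37.6 and 57.7 in TKO_48h, 57.8, 57.2 and 87.8 in TKO_96h and 25.3, 32.3 and 28.5 in WT_40h. All 9 TKO libraries lay above all 3 WT_40h libraries. It averaged 62.5 ± 10.2 CPM in TKO_40h, against 28.7 ± 3.53 CPM in WT_40h (SD, n = 3 each; log2 fold change 1.12 ± 0.19 SE, adjusted p = 0.0029). It kept this call with each library left out and was not called between priming times.

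Lama3, the alpha chain of the epithelial anchoring laminin, had 5.53, 6.38 and 7.45 CPM in TKO_40h, 8.42, 11 and 12.1 in TKO_48h, 12.5, 18.5 and 14.8 in TKO_96h and 15.6, 12.1 and 13.7 in WT_40h. TKO_40h and TKO_48h lay under WT_40h, and TKO_96h overlapped WT_40h. It averaged 6.45 ± 0.961 CPM in TKO_40h, against 13.8 ± 1.72 CPM in WT_40h (log2 fold change -1.09 ± 0.26 SE, adjusted p = 0.028). The call was lost with any 1 of the 6 libraries left out (adjusted p 0.0582 to 0.123). It rose in TKO_96h over TKO_40h (log2 fold change 1.24 ± 0.26 SE, adjusted p = 0.0037). Of the alpha chain TPM, Lama5 supplied 55.3 ± 4.16% in TKO_96h and 73.3 ± 6.68% in TKO_40h. Lama1 supplied 32.8 ± 4.02% in TKO_96h and 20.1 ± 5.51% in TKO_40h, and Lama3 10.0 ± 3.54% in TKO_96h and 2.78 ± 0.918% in TKO_40h (SD, n = 3 each). TPM of Lama1 per TPM of Lama5 was 0.503 to 0.723 in TKO_96h, against 0.139 to 0.382 in the 9 other libraries.

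Lamb1, the beta chain that pairs with Lama1 and Lama5, had 109, 95.7 and 135 CPM in TKO_40h, 91.2, 73.1 and 84.9 in TKO_48h, 45.6, 70.7 and 44.8 in TKO_96h and 55.1, 73.0 and 83.2 in WT_40h. It averaged 113 ± 19.8 CPM in TKO_40h, against 70.4 ± 14.2 CPM in WT_40h (log2 fold change 0.69 ± 0.18 SE, adjusted p = 0.04). The call was lost with each library but WT_40h replicate 3 left out in turn (0.0504 to 0.19). TKO_96h lay under TKO_40h and TKO_48h and overlapped WT_40h. The gene fell in TKO_96h against TKO_40h (log2 fold change -1.07 ± 0.18 SE, adjusted p = 0.0005). Against TKO_48h it was lower as well (log2 fold change -0.63 ± 0.18 SE, adjusted p = 0.019; 0.0513 to 0.0959 without TKO_48h replicate 1 or 3 or TKO_96h replicate 1 or 3). Lamc1, its gamma partner, had 369, 396 and 382 CPM in TKO_40h, 436, 373 and 426 in TKO_48h, 311, 373 and 416 in TKO_96h and 347, 342 and 352 in WT_40h. The TKO groups overlapped each other. It was called in no comparison, and its log2 fold changes lay between -0.17 and 0.14, while those of Lamb1 lay between -1.07 and 0.69.

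The laminin chains Lama2, Lama4, Lamb2 and Lamb3 were tested without a call by edgeR, and Lamc3 was not tested. The TKO_96h mean of Lamb2 lay under that of TKO_48h by a log2 fold change of -0.65 (adjusted p = 0.059), which DESeq2 called (0.048). Counts of Lamb3 lay lower there by a log2 fold change of -2.04 (adjusted p = 0.086). DESeq2 called it (0.041), as did edgeR without a filter (0.030) and with only both groups in the fit (0.045). Its short processed transcript went the other way in TPM, from a mean of 4.82 in TKO_48h to 7.17 in TKO_96h.

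Extraembryonic endoderm is known as a rich source of Lama1, Lamb1 and type IV collagen, so its markers were read beside these genes. The 11 listed markers summed to 59.0 to 61.5 CPM in TKO_40h, 40.9 to 63.7 CPM in TKO_48h, 20.9 to 44.6 CPM in TKO_96h and 38.6 to 44.5 CPM in WT_40h. TKO_40h thus exceeded WT_40h without overlap, and 1 TKO_96h library overlapped TKO_48h. Of 10 tested markers edgeR called 0 between genotypes, with 0 at an unadjusted p under 0.05 and 0 called by DESeq2. Over all 16178 genes 3.1% were called there, and 2527 were at an unadjusted p under 0.05. In TKO_96h against TKO_40h edgeR called 1 marker, Afp, which is 10% of the list, beside 12.1% of all genes. Afp had 0 counts in TKO_96h and 70 in TKO_40h, at least 21.3-fold lower in TKO_96h by the floor of 3 counts. In that comparison 6 of the 10 were at an unadjusted p under 0.05, beside 4112 of all 16178 genes. DESeq2 called 3, and the list's median log2 fold change was -1.15, against 0.00 over all genes. The part of these markers in the results for laminin and type IV collagen was not tested.

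Among the integrin subunits, Itga3 and its partner Itgb1 fell at 96 h of priming and Itga5 rose against TKO_40h. Itga3, an alpha chain of laminin receptors, had 84.2, 86.5 and 70.1 CPM in TKO_40h, 92.4, 58.4 and 61.4 in TKO_48h, 35.6, 30.7 and 32.4 in TKO_96h and 49.1, 50.5 and 61.5 in WT_40h. TKO_96h lay under all other libraries. It fell against TKO_40h (log2 fold change -1.29 ± 0.17 SE, adjusted p = 3.1e-05). It was also lower than in TKO_48h (log2 fold change -1.10 ± 0.17 SE, adjusted p = 0.0001), and its log2 fold change of 0.58 between genotypes was not called by edgeR (adjusted p = 0.054) but was by DESeq2 (0.026).

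Itga5, the alpha chain of the classical fibronectin receptor, had 54.9, 64.9 and 57.3 CPM in TKO_40h, 73.5, 69.8 and 76.6 in TKO_48h, 70.4, 88.6 and 97.5 in TKO_96h and 81.1, 87.3 and 92.4 in WT_40h. TKO_40h lay under every other library. It averaged 59.0 ± 5.22 CPM in TKO_40h, against 87.0 ± 5.66 CPM in WT_40h (log2 fold change -0.56 ± 0.13 SE, adjusted p = 0.019). This call was lost when TKO_40h replicate 1 or 3 or WT_40h replicate 2 or 3 was left out (0.0762 to 0.103). It rose in TKO_96h over TKO_40h (log2 fold change 0.54 ± 0.13 SE, adjusted p = 0.0085). Each TPM of Itga3 was accompanied by 1.16, 1.23 and 2.60 TPM of Itga5 in TKO_96h, against 0.405, 0.502 and 0.652 TPM in TKO_40h; the ratio was 0.874 to 1.47 in WT_40h.

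Itga6, a second laminin-binding alpha chain, had 174, 146 and 169.7 CPM in TKO_40h, 119, 90.4 and 118 in TKO_48h, 100.4, 135 and 148 in TKO_96h and 112, 114 and 164 in WT_40h. TKO_48h lay under TKO_40h (log2 fold change -0.59 ± 0.16 SE, adjusted p = 0.037) and overlapped TKO_96h and WT_40h. The call was lost without any TKO_40h library or TKO_48h replicate 2 or 3 (0.0568 to 0.137), and the gene was called in no other comparison. Itgav, which pairs with Itgb1, Itgb3 and Itgb5 in receptors for vitronectin and fibronectin, had 104, 115 and 129 CPM in TKO_40h, 162, 153 and 141 in TKO_48h, 99.8, 122 and 86.5 in TKO_96h and 119, 126 and 125 in WT_40h. TKO_48h lay above all other libraries. It fell in TKO_96h against TKO_48h (log2 fold change -0.56 ± 0.12 SE, adjusted p = 0.0031). Itga9, a receptor chain for tenascin, had 13.7, 15.2 and 16.3 CPM in TKO_40h, 24.4, 21.7 and 25.7 in TKO_48h, 10.9, 15.7 and 13.8 in TKO_96h and 15.7, 19.6 and 11.7 in WT_40h. TKO_48h again lay above all others. It also fell there (log2 fold change -0.83 ± 0.23 SE, adjusted p = 0.014; 0.068 without TKO_96h replicate 1).

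Itgb1 had 338, 299 and 349 CPM in TKO_40h, 381, 368 and 368 in TKO_48h, 253, 238 and 236 in TKO_96h and 369.8, 345 and 337 in WT_40h. TKO_96h lay under all other libraries. It fell against TKO_40h (log2 fold change -0.44 ± 0.09 SE, adjusted p = 0.0039). Against TKO_48h it was lower as well (log2 fold change -0.62 ± 0.10 SE, adjusted p = 0.00011). Both calls were kept with each library left out, and between genotypes the log2 fold change was -0.09 (adjusted p = 0.72).

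Itgb4, which pairs with Itga6 to anchor epithelia to laminin, had 3.73, 5.18 and 6.52 CPM in TKO_40h, 17.5, 21.5 and 22.9 in TKO_48h, 6.49, 5.04 and 3.17 in TKO_96h and 7.79, 10.7 and 13.3 in WT_40h. TKO_48h lay above all other libraries. It rose in TKO_48h over TKO_40h (log2 fold change 2.00 ± 0.32 SE, adjusted p = 0.0012) and fell in TKO_96h against TKO_48h (log2 fold change -2.08 ± 0.32 SE, adjusted p = 0.00014). In TKO_48h 40.5% of its TPM lay in 1 processed transcript, and in TKO_40h 67.1%.

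Itgb3, the chain used to recognise PGCLCs, had 17.4, 15.4 and 18.6 CPM in TKO_40h, 11.7, 20.7 and 21.3 in TKO_48h, 32.8, 25.3 and 20.0 in TKO_96h and 7.68, 12.8 and 6.77 in WT_40h. All TKO libraries but TKO_48h replicate 1 lay above WT_40h. It averaged 17.2 ± 1.62 CPM in TKO_40h, against 9.09 ± 3.26 CPM in WT_40h, but the edgeR test did not call it (log2 fold change 0.92 ± 0.28 SE, adjusted p = 0.084). DESeq2 (0.041), the fit of these 2 groups alone (0.036) and the fit without a filter on low counts (0.022) did. The log2 fold change was 0.60 ± 0.27 SE in TKO_96h minus TKO_40h (adjusted p = 0.17) and 0.53 ± 0.27 SE in TKO_96h minus TKO_48h (0.18). In TPM it stood at 1.99 ± 0.15 in TKO_40h, 1.72 ± 0.744 in TKO_48h, 2.90 ± 0.777 in TKO_96h and 0.970 ± 0.347 in WT_40h (SD, n = 3 each), far under Itgb1 in all groups.

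Itga8, an alpha chain that binds nephronectin, had 0.553, 0.399 and 0.116 CPM in TKO_40h, 5.84, 3.08 and 4.40 in TKO_48h, 1.21, 0.980 and 1.19 in TKO_96h and 4.12, 0 and 3.32 in WT_40h. The WT_40h libraries were widely spread, and TKO_48h lay above both other TKO groups. It was called higher in TKO_48h than in TKO_40h (log2 fold change 3.60 ± 1.02 SE, adjusted p = 0.045), from 34, 23 and 31 counts in TKO_48h, against 4, 3 and 1 in TKO_40h. The call was lost without any TKO_40h library or TKO_48h replicate 1 or 3 (0.097 to 0.165). Its main coding transcript was listed at 0 TPM in all 4 groups, and in TKO_48h 47.6% of its TPM lay in 1 transcript with a retained intron. Itgb1bp2 had 3.46, 4.52 and 4.42 CPM in TKO_40h, 0.687, 1.34 and 1.99 in TKO_48h, 4.23, 6.86 and 5.14 in TKO_96h and 5.12, 7.08 and 2.63 in WT_40h. TKO_48h lay under all other libraries. It rose in TKO_96h over TKO_48h (log2 fold change 1.99 ± 0.54 SE, adjusted p = 0.013; 0.052 without TKO_96h replicate 2). Integrin subunits of blood cells, Itgal, Itgam, Itgae, Itgb2 and Itgb7, were tested without a call. The 10 listed blood markers summed to 15.1 to 28.9 CPM over all 12 libraries, of which Laptm5 made 10.5 to 18.7 CPM. Ptprc and Coro1a were above 0 in every library and Tyrobp and Pf4 at 0 throughout, and the part of blood cells in the levels of these subunits was not tested.

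The 18 members below the filter averaged 0.0453 to 0.994 CPM: the collagens Col3a1, Col4a3, Col4a4, Col4a6, Col6a3, Col8a1, Col9a1, Col11a2, Col19a1, Col24a1 and Col28a1, the laminin Lamc3, and Itga11, Itgad, Itgax, Itgb2l, Itgb8 and Itgbl1. Col28a1 had 0 counts in each TKO_96h library, against 4, 7 and 6 in TKO_40h, at least 5.18-fold lower in TKO_96h by the floor of 3 counts. Itgb8 had 0 counts in each TKO_96h library, against 0, 14 and 3 in TKO_40h, so its difference rests on TKO_40h replicate 2: without it 3 counts were left, no more than the floor.

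The promoters of members that moved at 96 h of priming are shown with their CpG sites, at which DNA methyltransferases place methyl groups. TKO_96h and TKO_40h share the TKO genotype, so the comparison that picked these genes holds no difference in those enzyme genes' knockout. The bases are those of the mouse reference genome (RefSeq, GRCm38.p6) and not of the E14 line. Each run is read 5′ to 3′ on the strand of its gene, with CG in capitals, and holds the stretch before the start site that no annotated exon covers. Lama5, Lamb1 and Itga3 fell in TKO_96h against TKO_40h, Itga5 and Col9a2 rose, and the last run is the overlap of the Col4a1 and Col4a2 first exons, given on the plus strand.
Lama5 (chr2:180225860-180226109, minus strand): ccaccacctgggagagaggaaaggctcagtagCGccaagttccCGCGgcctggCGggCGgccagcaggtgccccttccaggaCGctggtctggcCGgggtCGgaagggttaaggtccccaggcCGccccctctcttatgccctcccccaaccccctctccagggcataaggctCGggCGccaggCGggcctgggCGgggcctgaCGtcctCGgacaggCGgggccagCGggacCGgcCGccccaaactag
Lamb1 (chr12:31265043-31265233, plus strand): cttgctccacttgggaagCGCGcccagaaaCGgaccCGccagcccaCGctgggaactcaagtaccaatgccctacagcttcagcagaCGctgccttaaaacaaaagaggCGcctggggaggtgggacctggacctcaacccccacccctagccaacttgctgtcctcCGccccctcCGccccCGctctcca
Itga3 (chr11:95076802-95076964, minus strand): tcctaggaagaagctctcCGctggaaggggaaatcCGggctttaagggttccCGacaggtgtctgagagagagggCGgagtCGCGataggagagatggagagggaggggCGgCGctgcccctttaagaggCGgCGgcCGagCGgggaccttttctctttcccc
Itga5 (chr15:103366792-103367041, minus strand): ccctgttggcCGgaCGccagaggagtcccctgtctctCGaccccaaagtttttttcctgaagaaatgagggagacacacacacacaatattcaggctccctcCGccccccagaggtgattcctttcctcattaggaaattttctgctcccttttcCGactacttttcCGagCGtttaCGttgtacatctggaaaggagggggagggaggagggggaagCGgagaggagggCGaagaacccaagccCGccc
Col9a2 (chr4:121039316-121039384, plus strand): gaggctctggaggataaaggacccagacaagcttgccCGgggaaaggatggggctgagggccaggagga
Col4a1 and Col4a2 (chr8:11312805-11312826, plus strand): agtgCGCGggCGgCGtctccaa

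Every GC box holds a CG, so the counts of GC boxes and of CG are not independent. Counted over the 250 bases before a RefSeq start, Lama5 had 19 CG, Lamb1 14, Itga5 11 and Col9a2 9. Itga3 had 22 at the start shown and 5 at another, Col4a1 had 31 and Col4a2 26. Of the other members called in TKO_96h minus TKO_40h, Itgb1 had 21, Col6a5 8 and Col6a1 3. Col6a2 had 14 and 6 at its 2 starts, and Col18a1 12 and 3. The 15 windows of members called there held 3 to 31 CG, with a median of 12. Over 66 windows of the 60 members that matched a promoter entry, the median was 9.5 CG, against 10 over 21263 windows of protein-coding genes; 24 members had no entry. The GC box, spelled GGGCGG and searched on both strands, was in 48.5% of the member windows, against 42.6% of protein-coding windows, in 12 of 15 windows from 12 members called in TKO_96h minus TKO_40h and in 16 of 35 windows from 33 members tested there and not called. Among members not tested, the GC box was in 4 of 16 windows from 15 members. No split by call was made over all genes, so whether the shares are particular to these members was not tested. Members with 2 starts count 2 windows each, and the Col4a1 and Col4a2 windows share bases, so windows are not independent. The motifs CCAAT and TATAAA were searched in the same way. CCAAT was in 27.3% of member windows, against 35.4%, and TATAAA in 7.58%, against 11.6%. CCAAT was in 5 of the 15 windows of called members and in 9 of the 35 of members not called. TATAAA was in 0 and 3 of them. A match is only a run of letters, and the windows say nothing of methylation, which is not in these data.

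Proteins that build, bind or cut the same matrix were read from lists of genes outside the 3 families. Among enzymes that modify and crosslink collagen, P4ha1, P4ha2, Plod2 and Loxl2 fell in TKO_96h. Of 33 tested, 2 were higher and 8 lower in TKO_96h than in TKO_40h, 2 higher and 9 lower than in TKO_48h, 3 higher and 0 lower in TKO_48h than in TKO_40h, and 1 higher and 2 lower in TKO_40h than in WT_40h. In the same order 30.3%, 33.3%, 9.09% and 9.09% of the list were called, against 12.1%, 19.5%, 5.49% and 3.1% of all genes. The list medians were -0.21, -0.35, 0.22 and -0.07, against 0.00 to 0.01 over all genes. P4ha1, an enzyme that hydroxylates prolines of collagen, had 147, 136 and 146 CPM in TKO_40h, 198, 193 and 176 in TKO_48h, 14, 13.9 and 13.2 in TKO_96h and 155, 167 and 167 in WT_40h. TKO_96h lay far under all other libraries (log2 fold change -3.38 ± 0.12 SE, adjusted p = 2.4e-13 against TKO_40h).

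Loxl2, which crosslinks collagen, had 65.4, 73.0 and 63.9 CPM in TKO_40h, 124, 110.2 and 129.5 in TKO_48h, 4.23, 2.80 and 1.71 in TKO_96h and 119.6, 114 and 107 in WT_40h. The gene fell in TKO_96h against TKO_40h (log2 fold change -4.55 ± 0.20 SE, adjusted p = 4.8e-12). It rose in TKO_48h over TKO_40h (log2 fold change 0.85 ± 0.14 SE, adjusted p = 0.0015) and was lower in TKO_40h than in WT_40h (log2 fold change -0.75 ± 0.14 SE, adjusted p = 0.0054). Plod2, a lysyl hydroxylase, had 185, 205 and 208 CPM in TKO_40h, 257, 254 and 236 in TKO_48h, 53.8, 69.6 and 58.4 in TKO_96h and 183, 172 and 163 in WT_40h. It fell in TKO_96h against TKO_40h (log2 fold change -1.72 ± 0.11 SE, adjusted p = 2.8e-09). P4ha2, a relative of P4ha1, was at 6.47 ± 1.89 CPM in TKO_96h, against 33.2 ± 11.4 CPM in TKO_40h (log2 fold change -2.35 ± 0.25 SE, adjusted p = 2.6e-06). Pxdn, which crosslinks type IV collagen and was chosen after its values were seen, fell in TKO_96h against TKO_48h (log2 fold change -1.77 ± 0.18 SE, adjusted p = 1.3e-06). P4ha1 rose in TKO_48h over TKO_40h by a log2 fold change of 0.40 (call lost without TKO_48h replicate 1 or TKO_40h replicate 1, 2 or 3, adjusted p 0.062 to 0.103) and P4ha2 by 0.78 (call lost without TKO_48h replicate 1 or 2 or TKO_40h replicate 1 or 2, adjusted p 0.0739 to 0.187). Mia3, which helps to export collagen from the endoplasmic reticulum, was higher in TKO_40h than in WT_40h (log2 fold change 0.45 ± 0.10 SE, adjusted p = 0.019; call lost without TKO_40h replicate 1 or 3 or WT_40h replicate 1, 2 or 3, adjusted p 0.0507 to 0.117). Fkbp10, a collagen chaperone, was lower there (log2 fold change -1.31 ± 0.32 SE, adjusted p = 0.028; call lost without TKO_40h replicate 1 or 2 or WT_40h replicate 1, 2 or 3, adjusted p 0.0504 to 0.132). Serpinh1, the collagen chaperone drawn in the plot of matrix genes, was chosen after its values were seen and fell in TKO_96h against TKO_40h (log2 fold change -0.65 ± 0.12 SE, adjusted p = 0.00097).

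**Figure D4:**
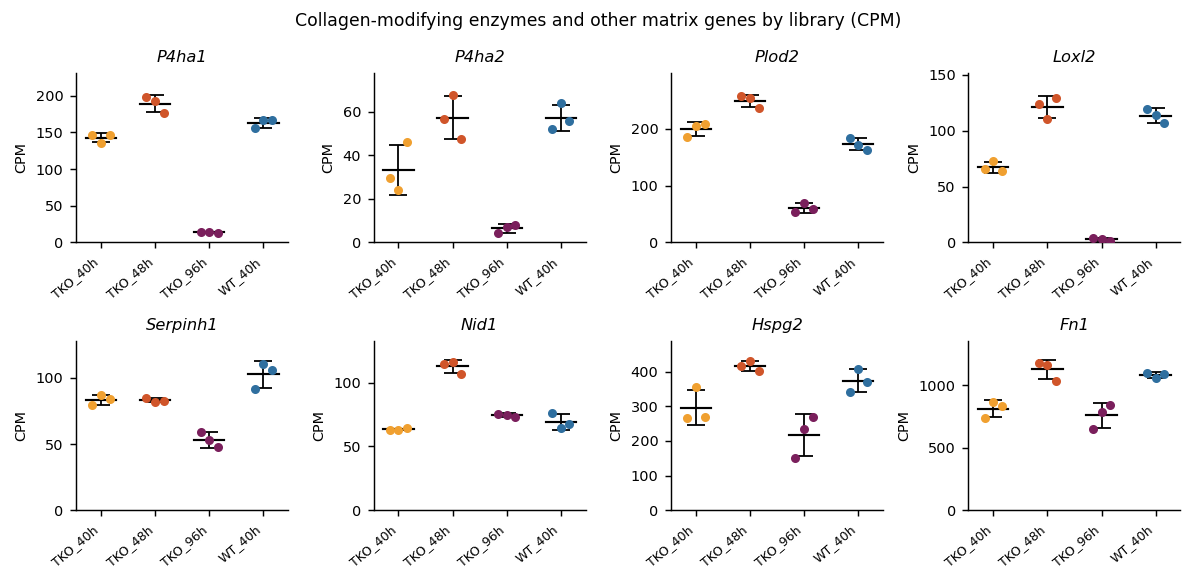
CPM in each library of 8 matrix genes outside the 3 families, with the mean and SD over 3 libraries, groups from left to right TKO_40h, TKO_48h, TKO_96h and WT_40h. P4ha1, P4ha2, Plod2 and Loxl2 are near the floor of their panels or far down in TKO_96h, while Nid1 is highest in TKO_48h and Fn1 of TKO_40h and TKO_96h lies under TKO_48h and WT_40h.

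Other basement membrane proteins gave calls upward in TKO_48h and downward in TKO_96h. Of 16 tested, 3 were higher and 0 lower in TKO_48h than in TKO_40h, 0 higher and 4 lower in TKO_96h than in TKO_40h, and 0 higher and 9 lower in TKO_96h than in TKO_48h. These are 18.8%, 25% and 56.2% of the list, against 5.49%, 12.1% and 19.5% of all genes. Between genotypes, where 3.1% of all 16178 genes were called and 2527 were at an unadjusted p under 0.05, edgeR called 0 of the 16. At an unadjusted p under 0.05 were 5 of the list, and DESeq2 called 0. The most abundant, Nid2 and Hspg2, had log2 fold changes of -0.12 and -0.34 in TKO_40h minus WT_40h. Nid1, which links laminin to type IV collagen, had 63.0, 63.0 and 64.1 CPM in TKO_40h, 115, 116 and 107 in TKO_48h, 75.8, 74.7 and 73.1 in TKO_96h and 75.9, 64.3 and 67.4 in WT_40h. It rose in TKO_48h over TKO_40h (log2 fold change 0.83 ± 0.11 SE, adjusted p = 0.00017) and was lower in TKO_96h than in TKO_48h (log2 fold change -0.60 ± 0.11 SE, adjusted p = 0.00052). Npnt, nephronectin, also rose in TKO_48h over TKO_40h, by 1.06 (call lost without TKO_48h replicate 1 or 2 or TKO_40h replicate 1, 2 or 3, adjusted p 0.0558 to 0.165), and Frem2 by 0.80 (call lost with any 1 of the 6 libraries left out, adjusted p 0.0551 to 0.172). Hspg2, the heparan sulphate proteoglycan perlecan, had 265, 354 and 268 CPM in TKO_40h, 415, 429.6 and 401 in TKO_48h, 152, 233 and 269 in TKO_96h and 342, 408 and 371 in WT_40h. It fell against TKO_48h (log2 fold change -0.93 ± 0.16 SE, adjusted p = 0.00033). Dag1, the laminin receptor dystroglycan, Fbln1, Tinagl1 and Bcam fell in TKO_96h against TKO_40h, with log2 fold changes of -0.56, -0.88, -2.43 and -0.67. The call of Tinagl1 was lost without TKO_96h replicate 1 or 3 or TKO_40h replicate 1, adjusted p 0.0569 to 0.0713, and that of Bcam was lost without TKO_96h replicate 1 or 3 or TKO_40h replicate 1 or 2, adjusted p 0.0614 to 0.164.

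Integrin ligands other than collagens and laminins went both ways. Of 14 tested, 2 were higher and 2 lower in TKO_40h than in WT_40h, 2 and 3 in TKO_48h against TKO_40h, 3 and 4 in TKO_96h against TKO_40h and 2 and 6 in TKO_96h against TKO_48h. The share called was 28.6%, 35.7%, 50% and 57.1%, against 3.1%, 5.49%, 12.1% and 19.5% of all genes. Thbs1, a matrix protein that binds integrins and CD47, had 27.4, 29.6 and 27.3 CPM in TKO_40h, 8.76, 4.55 and 10.5 in TKO_48h, 0, 1.54 and 0.396 in TKO_96h and 5.01, 5.21 and 6.91 in WT_40h. It was higher in TKO_40h than in WT_40h (log2 fold change 2.3 ± 0.41 SE, adjusted p = 0.0039). The gene fell in TKO_96h against TKO_40h (log2 fold change -5.39 ± 0.53 SE, adjusted p = 9.9e-07). The matricellular gene Ccn2 fell in TKO_96h against TKO_40h (log2 fold change -2.03 ± 0.21 SE, adjusted p = 1.4e-06), and Ccn1 fell in TKO_48h against TKO_40h (log2 fold change -1.64 ± 0.29 SE, adjusted p = 0.0022). Spp1, osteopontin, had 66.2, 63.4 and 57.5 CPM in TKO_40h, 46.9, 49.1 and 46.7 in TKO_48h, 189, 138 and 236 in TKO_96h and 45.5, 47.8 and 57.1 in WT_40h. It rose in TKO_96h over TKO_40h (log2 fold change 1.59 ± 0.15 SE, adjusted p = 7.8e-07). Fn1, fibronectin and the ligand of the receptor with Itga5, had 735, 868 and 834 CPM in TKO_40h, 1174, 1163 and 1036 in TKO_48h, 648, 788 and 841 in TKO_96h and 1099, 1053 and 1084 in WT_40h. It was lower in TKO_40h than in WT_40h (log2 fold change -0.41 ± 0.11 SE, adjusted p = 0.039; call lost with any 1 of the 6 libraries left out, adjusted p 0.0753 to 0.207) and rose in TKO_48h over TKO_40h (log2 fold change 0.47 ± 0.11 SE, adjusted p = 0.013; call lost without TKO_40h replicate 1, adjusted p = 0.0958). Icam1, a ligand of leukocyte integrins, was lower in TKO_40h than in WT_40h (-0.69; call lost without TKO_40h replicate 1 or 2 or WT_40h replicate 1 or 3, adjusted p 0.051 to 0.0995) and rose in TKO_96h over TKO_40h (1.37).

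Proteins that tie integrins to the cytoskeleton had list medians near 0. Of 34 tested, 2 were higher and 2 lower in TKO_40h than in WT_40h, 2 and 0 in TKO_48h against TKO_40h, 2 and 6 in TKO_96h against TKO_40h and 2 and 9 in TKO_96h against TKO_48h, with list medians of -0.02, 0.08, 0.00 and -0.07. The share called was 11.8%, 5.88%, 23.5% and 32.4% beside 3.1%, 5.49%, 12.1% and 19.5% of all genes, so that of TKO_48h minus TKO_40h was near the share of all genes. The filamin Flna fell in TKO_96h against TKO_40h (-0.78), as did zyxin, Zyx (-1.06), while the tensin Tns1 rose (1.44). Parvb was lower and the tensin Tns3 higher in TKO_40h than in WT_40h (-0.93 and 1.12). The call of Parvb was lost without TKO_40h replicate 2 or 3 or WT_40h replicate 2, adjusted p 0.058 to 0.0874, and that of Tns3 was lost without TKO_40h replicate 2 or 3 or WT_40h replicate 2, adjusted p 0.0505 to 0.0886. Against TKO_48h, Src, Parva and Fermt3, a kindlin, fell in TKO_96h (-1.22, -1.57 and -2.19).

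Among 14 tested other receptors for collagens and laminins, 2 were higher in TKO_48h than in TKO_40h, Sdc1 (0.76) and the collagen receptor Ddr1 (0.87; call lost with any 1 of the 6 libraries left out, adjusted p 0.0716 to 0.159). There were 0 higher and 2 lower in TKO_96h than in TKO_40h (Dag1 and Bcam, also in the basement membrane list). There were 1 higher and 5 lower in TKO_96h than in TKO_48h. In these 3 comparisons 14.3%, 14.3% and 42.9% of the list were called, beside 5.49%, 12.1% and 19.5% of all genes, and the share in TKO_96h minus TKO_40h was near that of all genes. Between genotypes, where 3.1% of all 16178 genes were called and 2527 were at an unadjusted p under 0.05, edgeR called 0 of the 14. At an unadjusted p under 0.05 were 3 of the list, and DESeq2 called 0. Against TKO_48h, Ddr1 fell (-1.03). Among 22 tested matrix proteases and inhibitors, 1 was higher and 1 lower in TKO_40h than in WT_40h (Htra1 1.26 and Mmp11 -1.14). The call of Htra1 was lost without TKO_40h replicate 1 or 2 or WT_40h replicate 1 or 2, adjusted p 0.0576 to 0.0861, and that of Mmp11 was lost without TKO_40h replicate 1 or 3 or WT_40h replicate 1, 2 or 3, adjusted p 0.0642 to 0.191. There was 1 higher in TKO_48h than in TKO_40h (Mmp15 1.28), 1 higher and 4 lower in TKO_96h than in TKO_40h, and 0 higher and 6 lower in TKO_96h than in TKO_48h. Those counts are 9.09%, 4.55%, 22.7% and 27.3% of the list, beside 3.1%, 5.49%, 12.1% and 19.5% of all genes, and the single call in TKO_48h was near the share of all genes. Mmp2, a protease that cuts type IV collagen, fell in TKO_96h against TKO_40h (log2 fold change -1.24 ± 0.19 SE, adjusted p = 0.00018), while Mmp11 rose (log2 fold change 1.02 ± 0.29 SE, adjusted p = 0.027; call lost without TKO_96h replicate 1 or 3 or TKO_40h replicate 1 or 3, adjusted p 0.0618 to 0.132). With the length offset, every call between genotypes in these 6 lists except that of Loxl2 was lost (adjusted p 0.0532 to 0.444). In TKO_48h minus TKO_40h the named calls of Ddr1, Fn1, Frem2, Npnt, P4ha1, P4ha2 and Sdc1 were lost under it (0.105 to 0.606), and in TKO_96h minus TKO_40h those of Bcam, Dag1, Tinagl1 and Mmp11 (0.0527 to 0.659).

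Markers of other cell types were given for the groups whose matrix genes differed. Neural markers, 9 listed with Nes and Tubb3 called higher in TKO_96h than in TKO_40h, summed to 227 to 256 CPM in TKO_96h, against 134 to 158 CPM in TKO_40h and 160 to 178 CPM in TKO_48h. From TKO_40h to TKO_96h the mean of Nes went from 49.3 to 101 CPM and that of Tubb3 from 19.2 to 51.3 CPM. Sox1 went from 39.6 to 40.2 CPM, Pax6 from 27.4 to 33.4 CPM and Map2 from 7.06 to 4.08 CPM. The list's median log2 fold change there was 0.11, so the summed rise was mainly that of Nes and Tubb3. These 2 are 28.6% of the 7 neural markers tested, beside 12.1% of all genes called there. Mesenchyme and mesoderm markers, 12 listed, summed to 16 to 25.9 CPM in TKO_96h, 20.2 to 35.4 CPM in TKO_40h, 29.8 to 36.9 CPM in TKO_48h and 18.5 to 20.6 CPM in WT_40h. Pdgfrb was called higher in TKO_48h than in TKO_40h and lower in TKO_96h than in TKO_48h. It averaged 1.58, 7.88, 2.22 and 6.21 CPM in TKO_40h, TKO_48h, TKO_96h and WT_40h. Both Pdgfrb calls were lost with single libraries left out (adjusted p 0.0567 to 0.085 and 0.0525 to 0.091) and with the length offset (0.0631 and 0.0527). Endothelial markers, 10 listed, summed to 71.2 to 104 CPM over all 12 libraries, of which Pecam1 made 54.0 to 82.8 CPM. The endothelial markers Sox18 and Cdh5 were called higher in TKO_40h than in WT_40h, 28.6% of 7 tested beside 3.1% of all genes. Sox18 averaged 5.17 ± 2.48 CPM in TKO_40h, against 0.402 ± 0.581 CPM in WT_40h (SD, n = 3 each). Cdh5 had 60 counts in TKO_40h, against 2 in WT_40h, a ratio of 30.5 with a counting interval of 8.07 to 257. Both calls were lost with single libraries left out (adjusted p 0.0528 to 0.0687 for Sox18 without TKO_40h replicate 3 or WT_40h replicate 1 or 3, and 0.0957 to 0.162 for Cdh5 without any of the 6). Trophoblast markers, 10 listed, summed to 56.5 to 62.7 CPM in TKO_40h, 31.6 to 57.1 CPM in TKO_48h, 34.7 to 42.9 CPM in TKO_96h and 27.4 to 42.5 CPM in WT_40h, with Prl3d1 at 0 throughout. TKO_40h lay above TKO_96h and WT_40h without overlap. Hand1 was called higher in TKO_40h than in WT_40h, and Hand1 and Gata3 were called lower in TKO_96h than in TKO_40h. In the same order these are 14.3% and 28.6% of 7 trophoblast markers tested, beside 3.1% and 12.1% of all genes. The call of Gata3 was lost without TKO_40h replicate 1 or 2 or any TKO_96h library (0.0556 to 0.172), and that of Hand1 in TKO_96h minus TKO_40h without TKO_40h replicate 3 (0.0652). The offset for transcript length ended all 5 calls of these endothelial and trophoblast markers (0.066 to 0.254). Their part in the results was not tested.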

How the data were processed

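RNA was extracted with Trizol from cells dissociated with EDTA, and the kit for libraries was the strand-marking SMARTer Pico total RNA kit, per the labels' protocols. The submitters' processing notes name Trim Galore 0.6.2, kallisto and the build GRCm38 (mm10). For kallisto, version, transcript set and strand setting: not given in the sources used here. The deposited tables hold the authors' estimated counts and TPM for each transcript of each library, with transcript lengths.

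Both were summed per gene (GENCODE M21, matched on the Ensembl transcript ID without its version for 116728 of 119414 transcripts, and 2.68 to 4.32% of a library's counts had no match), and estimated counts were rounded. All 12 libraries entered 1 edgeR 4.0.16 fit (R 4.3.3; TMM; filterByExpr by group with a minimum count of 10 and a minimum total of 15), with 1 mean for each group and no covariate, giving a two-sided quasi-likelihood test per gene and Benjamini-Hochberg adjustment over all 16178 genes tested. SE was taken as the absolute log2 fold change over the root of F, and CPM use TMM library sizes. The common biological coefficient of variation was 0.241. The analysis code was tested on simulated data. Alternatives were DESeq2 1.42.0, RLE size factors, no filter, a replicate block, an offset for effective transcript length, the compared groups alone and each library left out. Libraries of equal replicate number were not treated as paired in the main fit. Their deviations from group means correlated at -0.0576 to 0.0477 over 18 pairs of equal number. A correlation over all genes cannot exclude a shared factor that touches few of them.

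Members given with values in every library were up to 10 called in each direction of each comparison, the 3 of highest TPM in each family, Itgb3 and the type IV partner gene; from each other list up to 4 called genes were named, or the 2 most abundant. The members and lists were chosen with earlier results of these data known. The labels call the libraries biological replicates without naming separate cultures, so p-values measure the spread between these libraries. Promoter bases came from RefSeq (GRCm38.p6). Some members and list genes are not reported here by name, though counts over the lists include them.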

Additional observations from a re-analysis of the deposited data

How the results depend on the processing

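The count of members called depended most on the comparison of genotypes. In TKO_40h minus WT_40h it was 4, against 7 with no filter on low counts, 0 with the length offset, 9 with the compared groups alone, 8 with DESeq2 and 1 to 2 with 1 library left out; over all genes it was 501, against 787, 77, 1278 and 785 under the same settings and 182 to 217 with 1 library left out. In TKO_48h minus TKO_40h 8 members became 2 and 888 genes became 203 with the offset, and 3 to 6 members and 324 to 1106 genes (1106 without TKO_48h replicate 2) were called with 1 library left out. In TKO_96h minus TKO_40h 13 members became 11 to 13 and 1965 genes became 1210 to 1676 (1210 without TKO_40h replicate 3) with 1 library left out, and 830 genes with the offset. In TKO_96h minus TKO_48h 18 members became 10 and 3157 genes became 1638 with the offset, and 14 to 17 members with 1 library left out. Leaving out both libraries that stood apart, an alternative chosen after seeing the data, gave 14 members and 2505 genes. The offset changes every count by the effective lengths kallisto estimated, and the cause of the lost calls was not tested.

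Of 43 called values of members, 532 recomputed values held 93 lost calls and 0 turned signs. Signs turned in values that were not called: with the offset Col4a2 (-0.20) and Lamc1 (-0.0006) in TKO_40h minus WT_40h and Col18a1 (0.05) in TKO_48h minus TKO_40h, and with 1 library left out Col4a2 in TKO_40h minus WT_40h (-0.0523 to 0.18), Col18a1 (-0.13 to 0.10) and Itgb3 (-0.0694 to 0.29) in TKO_48h minus TKO_40h and Lamc1 in TKO_96h minus TKO_40h (-0.15 to 0.0456). With the replicate block 5, 6, 13 and 17 members and 520, 903, 2022 and 3175 genes were called in the order of comparisons above. The block ended the calls of Col5a3 (adjusted p = 0.053) and Itga8 (0.051) in TKO_48h minus TKO_40h and of Col13a1 (0.065) in TKO_96h minus TKO_48h, and added Col6a5 in TKO_40h minus WT_40h (0.047). With 3 libraries a group, 33 of 66 tested members lay under a mean of 5 CPM, where few counts limit the precision. Fold bounds with a library left out were added after seeing the data.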
